A study of Cricetulus griseus with 6 samples.

Results

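The genes considered here are *Xbp1* and the sensors and processing enzymes that stand around it in the unfolded protein response (UPR). The rows with the symbols *Xbp1*, *Ern1*, *Rtcb*, *Atf6*, *Atf6b*, *Eif2ak3*, *Mbtps1*, *Mbtps2* and *Creb3l2* were taken, and all 9 were found, each on 1 row, among 27873 rows. Expression was measured by RNA-Seq in CHO-T cells taken 48 h after transfection. There were 3 libraries from cells that received negative control siRNA and 3 from cells that received *Xbp1* siRNA. This allows the question of how the transcripts of the UPR branches themselves differ after *Xbp1* siRNA. The study's methods give 1 *Xbp1* siRNA sequence and describe no rescue. Effects of lost *Xbp1* and other effects of this siRNA therefore cannot be told apart. The line derives from the ovary of the Chinese hamster (CHO cells) and was infected with a retrovirus carrying mouse T-cadherin (*Cdh13*) cDNA and selected with puromycin, so both groups carry this transgene, and no group without siRNA, with untransduced cells or with an inducer of endoplasmic reticulum (ER) stress was analysed here. The deposited values are FPKM, fragments scaled to the exon length of the gene and to the mapped reads of the library, so levels of different genes can be set side by side. The study's methods state in general that experiments were repeated independently. The labels do not say this of the 3 libraries of a group, so the p-values below measure the spread between these libraries, which may be in part technical.

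The ER folds secreted and membrane proteins, and 3 kinds of sensor in its membrane respond when unfolded proteins accumulate. IRE1α, encoded by *Ern1*, is a kinase and endoribonuclease that cuts the *Xbp1* mRNA at 2 stem loops and removes an intron in the cytosol. The RNA ligase RTCB joins the resulting ends, and the spliced mRNA encodes XBP1s, a transcription factor for chaperones, translocation and ER-associated degradation. PERK, encoded by *Eif2ak3*, phosphorylates eIF2α and lowers translation. ATF6 and its relative ATF6β (*Atf6b*) travel to the Golgi, where the site 1 protease (*Mbtps1*) and the site 2 protease (*Mbtps2*) release their cytosolic parts as transcription factors, and *Creb3l2* encodes another membrane-bound factor that these proteases cut.

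Sequences are given because they show the bases at which the siRNA and IRE1α meet the *Xbp1* message. They do not show where these bases lie along the hamster mRNA. The first is the forward *Xbp1* primer of the study for hamster cells, written as DNA. Its 19 bases in capitals, bases 2 to 20, are those of the sense strand of the siRNA given in the study's methods, so they mark the stretch of *Xbp1* mRNA that the siRNA was designed against. The second is the reverse primer of the same pair. The last is the *Xbp1* stem loop region in the study's supplement, written as RNA and without a species beside it, in which the capitals mark the 2 stretches of 7 bases that match CNGCAGC, the letters around the IRE1α cutting site. They stand at bases 13 to 19 and 39 to 45 of this 57-base region, and their starts lie 26 bases apart.
chXBP1_Fw: aGAGACGGAGTCCAAGGGAA
chXBP1_Rv: gggagttcctccagattggc
Xbp1 stem loop: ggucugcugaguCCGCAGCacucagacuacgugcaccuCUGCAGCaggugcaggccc

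The FPKM files hold 1 row for *Xbp1*, whereas the hamster gene table of RefSeq lists 2 *Xbp1* transcripts. Spliced and unspliced *Xbp1* mRNA therefore cannot be told apart in these values, and IRE1α, PERK and ATF6 were measured as transcripts, not as active proteins.

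The libraries were of similar depth, between 94% and 116% of control replicate 1 as judged from the most frequent ratio of low FPKM values. Between 15109 and 15545 rows were above 0. The FPKM values of a library summed to between 646651 and 666267 with control siRNA and to between 593487 and 600986 with *Xbp1* siRNA, so the mean sum dropped by 8.95%. Scaling factors from the median ratio of genes were between 1.002 and 1.005, so values are given as deposited, and for the 9 genes a call or sign that an equal sum in every library would alter is named where it occurs. Of the 6 mesenchymal markers, 4 were present and their summed level was 2686 to 2906 FPKM with control siRNA and 1459 to 1528 FPKM with *Xbp1* siRNA, while *Col1a1* and *Thy1* were listed at 0. *S100a6*, *Lgals1* and *Vim* were lower, with log2 fold changes of −1.11, −0.85 and −0.31, and *Fn1* was higher, from 13.1 to 23.3 FPKM (0.83, adjusted p = 2.15e-05 from limma). Markers of granulosa and theca cells summed to 5.32 to 7.1 and 5.91 to 8.45 FPKM in the respective groups, with *Fshr* and *Lhcgr* at 0, and oocyte markers to 1.99 to 2.41 and 1.45 to 2.19 FPKM, with *Figla* and *Zp3* at 0. The labels name the ovary as tissue, and of its markers *Amh*, *Inha* and *Ddx4* were at low levels, with 2.69, 2.63 and 1.63 FPKM as control means. Epithelial markers summed to 1.83 to 2.16 and 4.59 to 5.79 FPKM with *Krt18* at 0, and leukocyte markers to 5.18 to 6.15 and 6.99 to 8.8 FPKM with *Ptprc*, *Cd3e* and *Cd14* at 0. Endothelial markers stayed at or under 0.305 FPKM. The transcript assigned to *Cdh13* went from 84.6 to 85.5 FPKM down to 32.6 to 33.5 FPKM. The part that these shifts had in the results below was not tested.

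Of the 9 genes, 8 were expressed highly enough to be tested. With *Xbp1* siRNA, *Xbp1* and *Atf6* fell by more than the fold limit, *Rtcb* fell less, *Eif2ak3* and *Mbtps1* rose, and the small decrease of *Ern1* depended on how the values were tested. *Atf6b* and *Mbtps2* did not pass the test. Of all genes tested, 19.4% had a lower fold change than *Rtcb*. A higher one than that of *Eif2ak3* was found for 13.8%, and a higher one than that of *Mbtps1* for 33.8%. Genes were called where limma gave an adjusted p under 0.05 and the log2 fold change was 1 or more in size. By this rule 2 of the 8 genes were called lower, where 2.50% of all 14361 genes tested were, and 0 were called higher, where 2.69% of all were. At an adjusted p under 0.05 alone, 4 were lower and 2 higher, and this holds for 20.2% of all genes tested in the lower and 20.2% in the higher direction. The libraries of both groups did not overlap for 6 of the 8, 4 lower and 2 higher, beside 25.8% of all genes in the lower and 26.1% in the higher direction. Since *Xbp1* was the silenced gene, its place among these counts was set by the design.

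**Figure D1:**
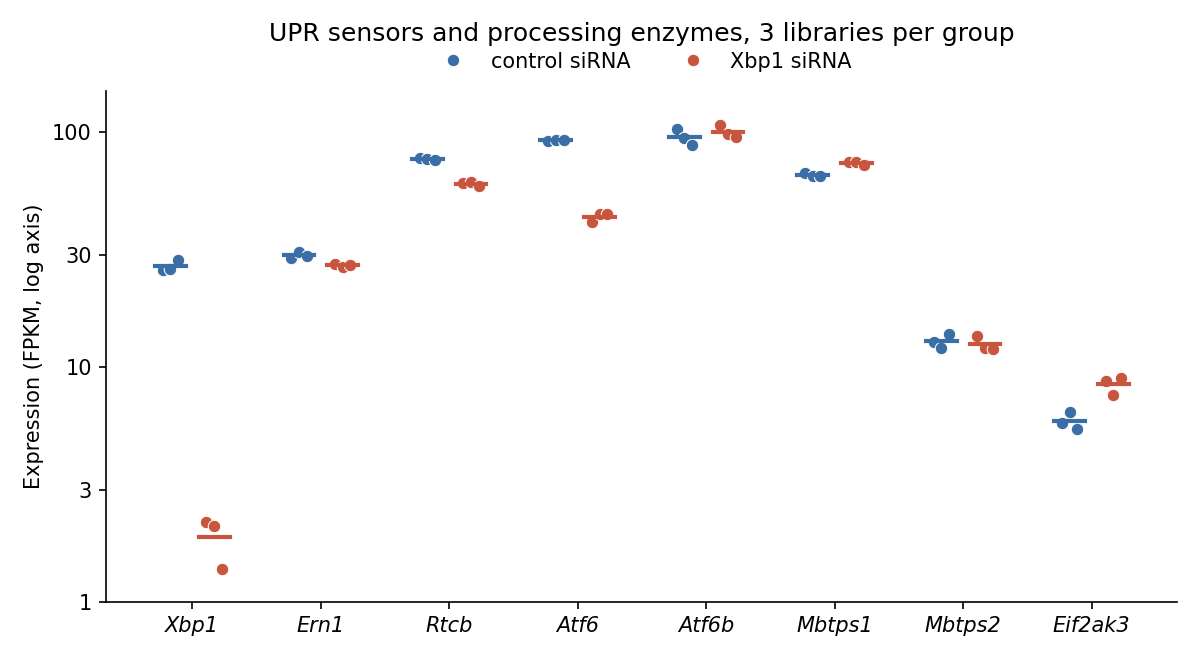
Expression of 8 genes in FPKM on a log axis, with 1 point per library and a bar at the mean of 3 libraries for control siRNA (blue) and *Xbp1* siRNA (red). *Xbp1* went from 26.8 to 1.89 FPKM and *Atf6* from 92 to 43.5 FPKM, while the points of *Atf6b* and *Mbtps2* overlapped between the groups; *Creb3l2*, listed at 0, is not drawn.

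*Xbp1*, the target of the siRNA, comes first because it tests the group labels. It stood at 25.96, 26.16 and 28.39 FPKM in the 3 control libraries and at 2.181, 2.108 and 1.385 FPKM in the 3 libraries with *Xbp1* siRNA. Every library with *Xbp1* siRNA was far under every control library, and the third was the lowest. The means were 26.8 ± 1.35 and 1.89 ± 0.44 FPKM (SD, n = 3 each), so 7.05% of the control level remained. The log2 fold change was −3.78 (standard error 0.16, 95% interval −4.17 to −3.40, adjusted p = 5.61e-06 from limma). A lower fold change was found for 0.0279% of all genes tested. In such bulk RNA, fewer cells holding *Xbp1* mRNA and less of it per cell cannot be told apart, here or for the genes below.

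*Ern1*, the transcript of the sensor that cuts *Xbp1* mRNA, was at 29.09, 30.71 and 29.61 FPKM with control siRNA and at 27.39, 26.62 and 27.11 FPKM with *Xbp1* siRNA. The groups did not overlap, but they lay within a few FPKM of each other. The means were 29.8 ± 0.826 and 27 ± 0.388 FPKM (SD, n = 3 each), with a log2 fold change of −0.14 (standard error 0.043, 95% interval −0.24 to −0.04, adjusted p = 0.0356 from limma). It did not reach the fold limit, and it no longer passed the adjusted p in 9 of 16 alternatives, over which the adjusted p from limma lay between 0.0326 and 0.944. With control replicate 2, control replicate 3 or *Xbp1* siRNA replicate 1, 2 or 3 left out, it was 0.113, 0.0734, 0.0656, 0.0991 and 0.0879, while the log2 fold change was −0.12, −0.14, −0.15, −0.13 and −0.14. Quantile normalization gave a log2 fold change of −0.09, and an equal FPKM sum in every library gave −0.01. A rise of the *Ern1* transcript was thus not seen in any of these settings, and a decrease was not distinguished from none in several of them.

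*Rtcb* encodes the ligase that seals the *Xbp1* mRNA after IRE1α has cut it, and it is also the tRNA ligase of the cell. It was at 77.74, 76.33 and 76.15 FPKM with control siRNA and at 60.47, 60.98 and 58.75 FPKM with *Xbp1* siRNA. The groups were well apart and the libraries within each lay close together. The means were 76.7 ± 0.871 and 60.1 ± 1.17 FPKM (SD, n = 3 each), which leaves 78.3% of the control level. The log2 fold change was −0.35 (standard error 0.034, 95% interval −0.43 to −0.27, adjusted p = 0.000172 from limma), under the fold limit and lower in each alternative run. The smallest change, −0.22, came with an equal FPKM sum.

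*Atf6* showed the second-largest change of the 8 genes after that of *Xbp1*. Its level was 91.26, 92.68 and 91.95 FPKM in the control libraries and 41.18, 44.58 and 44.68 FPKM with *Xbp1* siRNA. No library with *Xbp1* siRNA came near the controls. The mean level was 92 ± 0.711 FPKM with control siRNA and 43.5 ± 1.99 FPKM with *Xbp1* siRNA (SD, n = 3 each), so 47.3% was left. The log2 fold change was −1.08 (standard error 0.042, 95% interval −1.18 to −0.98, adjusted p = 3.87e-06 from limma). By p-value *Atf6* ranked 68 of 14361 genes, and 3.44% of the genes tested had a lower fold change. Its interval spans the fold limit of 1. With an equal FPKM sum in every library the log2 fold change was −0.95, which is no longer called, although the adjusted p from limma was then 7.61e-06.

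*Atf6b*, which encodes the closely related ATF6β, was at 103, 94.02 and 88.37 FPKM with control siRNA and at 107.3, 97.55 and 95.2 FPKM with *Xbp1* siRNA. The groups overlapped, with means of 95.1 ± 7.39 and 100 ± 6.39 FPKM (SD, n = 3 each). The log2 fold change was 0.07 (standard error 0.067, 95% interval −0.08 to 0.23, adjusted p = 0.433 from limma). With 1 library left out it lay between 0.02 and 0.13 and did not pass the test in any of these runs. An equal FPKM sum gave 0.21 with an adjusted p of 0.0273 from limma, past the adjusted p but under the fold limit. The interval as deposited does not reach a decrease of the size seen for *Atf6*.

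The 2 ATF6 transcripts were also set against each other within each library, a comparison chosen after their values had been seen and one that no scaling between libraries can alter. *Atf6* made up 47%, 49.6% and 51% of the FPKM of *Atf6* and *Atf6b* together with control siRNA, and 27.7%, 31.4% and 31.9% with *Xbp1* siRNA. All shares with *Xbp1* siRNA were under all control shares. The difference of the means was −18.9 percentage points (49.2 ± 2.04% and 30.3 ± 2.28%, SD, n = 3 each), and the exact two-sided permutation test gave p = 0.10, the smallest that 3 libraries against 3 allow. As the values had prompted the comparison, this p adds no support to it. The sum of both transcripts went from 187 ± 6.98 to 143 ± 4.44 FPKM (SD, n = 3 each).

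*Mbtps1*, whose product makes the first cut in ATF6, was at 67.06, 64.92 and 64.95 FPKM with control siRNA and at 74.63, 74.62 and 72.23 FPKM with *Xbp1* siRNA. The groups did not overlap, and every library with *Xbp1* siRNA was higher. The mean went from 65.6 ± 1.23 to 73.8 ± 1.38 FPKM (SD, n = 3 each), with a log2 fold change of 0.17 (standard error 0.034, 95% interval 0.09 to 0.25, adjusted p = 0.00639 from limma). The change stayed between 0.16 and 0.3 over the alternatives, past the test in each of them.

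*Mbtps2*, whose product makes the second cut inside the membrane, was at 12.8, 12.08 and 13.76 FPKM with control siRNA and at 13.56, 11.99 and 11.96 FPKM with *Xbp1* siRNA. The groups overlapped. The steps of the FPKM values gave 187, 166 and 197 reads with control siRNA and 203, 172 and 203 reads with *Xbp1* siRNA. The log2 fold change was −0.04 (95% interval −0.23 to 0.14, adjusted p = 0.704 from limma), and its sign was positive in 2 of 16 alternatives. Without control replicate 3 it was 0.01, and with an equal FPKM sum it was 0.09.

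*Eif2ak3*, the transcript of PERK, was the lowest of the tested genes in the control libraries and moved in the opposite direction to *Atf6*. It was at 5.792, 6.397 and 5.434 FPKM with control siRNA and at 8.718, 7.627 and 8.938 FPKM with *Xbp1* siRNA. Each library with *Xbp1* siRNA was above each control library. The corresponding reads were 236, 245 and 217 against 364, 305 and 423, numbers that cover counting error only and are not corrected for depth. The mean rose from 5.87 ± 0.486 to 8.43 ± 0.702 FPKM (SD, n = 3 each), a 1.43-fold level. The log2 fold change was 0.51 (standard error 0.099, 95% interval 0.28 to 0.75, adjusted p = 0.00512 from limma), under the fold limit and between 0.46 and 0.65 over the alternatives.

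*Creb3l2* was listed at 0 in all 6 libraries and was not tested. Its relatives were read from a list of genes around ATF6. *Creb3l1* had 36.7 ± 3.31 and 40 ± 1.92 FPKM, *Creb3* had 8.44 ± 0.625 and 9.13 ± 1.39 FPKM (SD, n = 3 each), and neither passed the test, with log2 fold changes of 0.13 and 0.10 and adjusted p of 0.213 and 0.533 from limma. *Creb3l3* was much lower, with 0.361 ± 0.0414 and 0.569 ± 0.244 FPKM (SD, n = 3 each), and did not pass either (0.48, adjusted p = 0.29 from limma). *Creb3l4* was under the filter. These relatives are named after their values were seen.

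**Figure D2:**
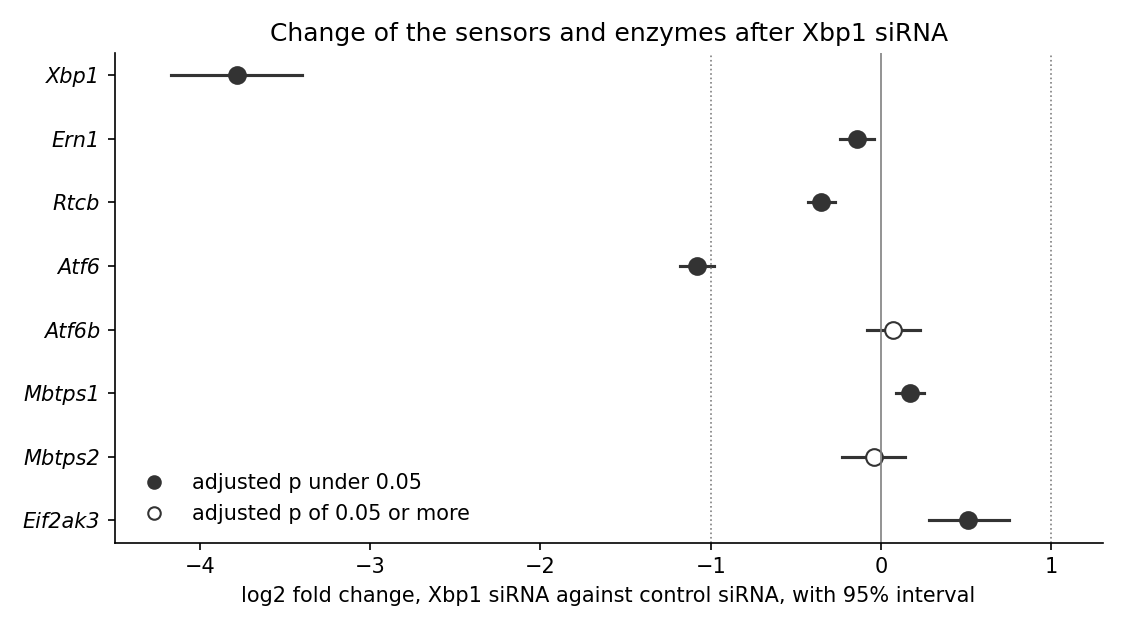
log2 fold change of each tested gene with its 95% interval from limma, *Xbp1* siRNA against control siRNA, with filled points for an adjusted p under 0.05 and dotted lines at the fold limit of 1 in either direction. The point of *Xbp1* lies at −3.78 and that of *Atf6* at −1.08, *Eif2ak3* at 0.51 is the highest, and the intervals of *Atf6b* and *Mbtps2* cross 0.

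The order of the levels differed between the groups. With control siRNA it ran from *Atf6b* (95.1 FPKM) and *Atf6* (92 FPKM), whose libraries overlapped, over *Rtcb* (76.7), *Mbtps1* (65.6), *Ern1* (29.8), *Xbp1* (26.8) and *Mbtps2* (12.9) down to *Eif2ak3* (5.87 FPKM), and no other neighbours overlapped. With *Xbp1* siRNA *Atf6b* (100 FPKM) was still first, followed by *Mbtps1* (73.8), *Rtcb* (60.1), *Atf6* (43.5), *Ern1* (27), *Mbtps2* (12.5), *Eif2ak3* (8.43) and *Xbp1* (1.89 FPKM), and no neighbours overlapped. *Atf6* dropped under *Mbtps1* and *Rtcb*, *Mbtps1* passed *Rtcb*, and *Xbp1* went to the last place.

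Within a library the sensors can be compared without any scaling between libraries. Of the summed FPKM of *Ern1*, *Eif2ak3* and *Atf6*, leaving out *Atf6b*, *Ern1* held 23.1%, 23.7% and 23.3% with control siRNA and 35.4%, 33.8% and 33.6% with *Xbp1* siRNA. The share was higher in every library with *Xbp1* siRNA. It went from 23.3 ± 0.3% to 34.3 ± 1.02% (SD, n = 3 each), a difference of 10.9 percentage points with p = 0.10 in the exact two-sided permutation test, the smallest this design can give. The sum of these transcripts fell from 128 ± 1.91 to 78.9 ± 1.72 FPKM (SD, n = 3 each), so the larger share of *Ern1* came with a smaller total and with no higher level of *Ern1*. Of the same sum, *Atf6* held 72.1 ± 0.559% and 55.1 ± 1.65%, and *Eif2ak3* 4.6 ± 0.325% and 10.7 ± 0.873% (SD, n = 3 each). The size of the difference for *Ern1* depended on leaving out *Atf6b*, whose level overlapped that of *Atf6* with control siRNA and was the highest with *Xbp1* siRNA. With *Atf6b* in the sum, an alternative added after seeing the data, *Ern1* held 12.7%, 13.7% and 13.7% with control siRNA and 14.8%, 15.1% and 15.4% with *Xbp1* siRNA. The difference was then 1.73 percentage points, still without overlap and again with the smallest possible p of 0.10 in the exact permutation test.

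**Figure D3:**
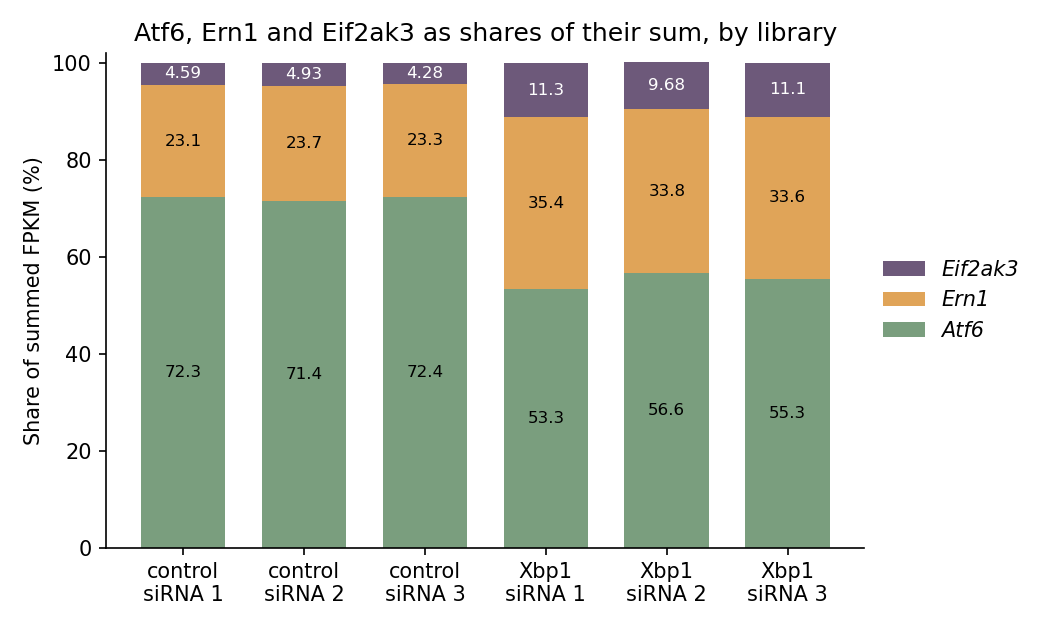
Shares of *Atf6*, *Ern1* and *Eif2ak3* in their summed FPKM, in percent, with 1 bar per library and the values printed in each segment. *Ern1* held 23.1% to 23.7% in the control libraries and 33.6% to 35.4% with *Xbp1* siRNA, and *Eif2ak3* held a larger part in each library with *Xbp1* siRNA.

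The ratio of substrate to enzyme transcript, *Xbp1* FPKM divided by *Ern1* FPKM, was 0.892, 0.852 and 0.959 with control siRNA and 0.0796, 0.0792 and 0.0511 with *Xbp1* siRNA. The transcripts were thus at similar levels in control cells, and the ratio fell with *Xbp1* itself. The means were 0.901 ± 0.0541 and 0.07 ± 0.0163 (SD, n = 3 each), and the exact two-sided permutation test gave p = 0.10, again its smallest value. Since *Xbp1* was the silenced gene, this separation was set by the design, and the test adds no support to it.

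The genes around these sensors were read from 6 lists of known partners and targets. Of 87 genes listed, 83 were found by symbol, 79 were tested, 31 were lower and 19 higher at an adjusted p under 0.05 from limma, and 29 were neither. This is 39.2% lower and 24.1% higher, beside 20.2% in each direction for all genes tested. The same 20.2% stands beside the counts of each list below. The lower share ran from 23.5% (ATF6 transport, cleavage and cofactors) to 60% (PERK arm). The higher share ran from 6.67% (PERK arm) to 35.7% (ATF6 targets), so some lists lay near the share of all genes. With the fold limit 1 was called lower and 1 higher, *Ppp1r15b* and *Eif2ak2*. With an equal FPKM sum, which moves the median log2 fold change of all genes from 0.00634 to 0.136, the lists held 19 lower and 28 higher genes, while all genes tested held 1869 lower and 4555 higher, against 2904 and 2898 as deposited.

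Among IRE1 partners and regulators, 4 of 12 tested genes were lower and 4 higher, with a median log2 fold change of −0.0357. *Sel1l*, a subunit of the ER-associated degradation complex that also handles IRE1α, was at 30.1, 34.24 and 32.11 FPKM with control siRNA and at 17.76, 18.61 and 18.25 FPKM with *Xbp1* siRNA. It fell in every library, with a log2 fold change of −0.81 (standard error 0.058, adjusted p = 4.48e-05 from limma). *Syvn1*, the ubiquitin ligase that works with SEL1L in that complex, went the other way, from 25.9 ± 1.69 to 37.1 ± 1.92 FPKM (SD, n = 3 each), a log2 fold change of 0.51 (adjusted p = 0.000591). *Mapk8*, the gene of the kinase JNK1 downstream of IRE1α, fell by 0.71 on the log2 scale (adjusted p = 0.000664), and *Traf2*, the adaptor that links IRE1α to JNK, rose by 0.52 (adjusted p = 0.000736). *Hspa5*, the gene of the chaperone BiP that binds the sensors, was also lower, with 1132 ± 2.99 and 924 ± 16.4 FPKM (SD, n = 3 each) and a log2 fold change of −0.29 (adjusted p = 0.000146), and it is named after its values were seen. *Ern2*, the paralog of *Ern1*, and *Map3k5* were listed at 0.

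Of the 12 tested genes of the tRNA ligase complex and RNA ends, 5 were lower and 2 higher, with a median log2 fold change of −0.252. *Ddx1*, the helicase of the RTCB complex, went from 45.8 ± 1.99 to 35.3 ± 2.26 FPKM (SD, n = 3 each), a log2 fold change of −0.38 (adjusted p = 0.00191 from limma), close to that of *Rtcb* itself. *Clp1*, an RNA kinase of tRNA splicing, fell by 0.29 on the log2 scale (adjusted p = 0.00336). *Zbtb8os*, which encodes the RTCB cofactor archease, rose by 0.30 (adjusted p = 0.00387). With an equal FPKM sum the log2 fold changes of *Ddx1*, *Clp1* and *Zbtb8os* were −0.24, −0.15 and 0.43. Their adjusted p from limma were then 0.0135, 0.0496 and 0.000947. The complex subunits *Rtraf* and *Fam98a* had log2 fold changes of −0.27 and −0.19 and *Fam98b* one of 0.23, all past the adjusted p, and these 3 are named after their values were seen. *Rtca*, the gene of an RNA cyclase, did not pass.

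The list of the PERK arm had the largest share of lower genes, with 9 of 15 tested genes lower, 1 higher and a median log2 fold change of −0.249. It also holds the other eIF2α kinase genes *Eif2ak1*, *Eif2ak2* and *Eif2ak4*, and *Eif2ak2* is its only higher gene. Most genes of this list were thus lower where *Eif2ak3* was higher, and the part of PERK itself in this was not tested. *Ppp1r15b*, a regulatory subunit of the phosphatase that removes phosphate from eIF2α, was at 24.39, 24.36 and 24.92 FPKM with control siRNA and at 12.24, 10.66 and 12.45 FPKM with *Xbp1* siRNA. It was close to 1 level within each group and had a log2 fold change of −1.06 (standard error 0.07, adjusted p = 3.17e-05 from limma). Without *Xbp1* siRNA replicate 2 it was −0.99, just short of the fold limit, and with an equal FPKM sum −0.92. *Ddit3*, the gene of the stress factor CHOP, went from 157 ± 7.9 to 107 ± 3.05 FPKM (SD, n = 3 each), a log2 fold change of −0.55 (adjusted p = 7.55e-05). The other genes lower at the adjusted p were *Nck1* with a log2 fold change of −0.50, *Sesn2* with −0.38, *Chac1* with −0.30, *Trib3* and *Dnajc3* with −0.29 each, *Asns* with −0.25 and *Eif2s1*, which encodes eIF2α itself, with −0.22. The stress factor gene *Atf4* had 637 ± 20 and 612 ± 7.63 FPKM (SD, n = 3 each) and did not pass (−0.06, adjusted p = 0.205 from limma), nor did *Atf3* (0.03, adjusted p = 0.79) or *Ppp1r15a* (−0.10, adjusted p = 0.0565). Apart from *Ppp1r15b* and *Ddit3*, these genes are named after their values were seen.

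*Eif2ak2*, the gene of PKR, a kinase of eIF2α that responds to double-stranded RNA, was the only list gene called higher. It rested on 21, 17 and 9 reads with control siRNA and 28, 34 and 46 reads with *Xbp1* siRNA, or 1.22 ± 0.466 and 2.56 ± 0.468 FPKM (SD, n = 3 each). The groups did not overlap, with a log2 fold change of 1.07 (standard error 0.3, adjusted p = 0.0252 from limma). Without control replicate 3, the lowest library, the log2 fold change was 0.74. Without *Xbp1* siRNA replicate 2 it was 1.05 with an adjusted p of 0.0701 from limma, and without *Xbp1* siRNA replicate 3 it was 0.95 with an adjusted p of 0.0852. The call also ended with a pseudocount of 1 (0.70), with quantile normalization (0.96) and with eBayes without trend (1.07, adjusted p = 0.0532 from limma). The other eIF2α kinases *Eif2ak1* and *Eif2ak4* did not pass, with log2 fold changes of −0.05 and 0.15.

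In the list of ATF6 transport, cleavage and cofactors, 4 of 17 tested genes were lower and 6 higher, with a median log2 fold change of 0.174. This list also holds *Insig1*, *Insig2*, *Scap* and *Srebf2*, genes around other substrates of both proteases, so its counts are not of ATF6 alone. *Insig1*, which holds SREBP precursors and SCAP in the ER, was at 4.779, 4.858 and 4.962 FPKM with control siRNA and at 7.345, 9.005 and 8.264 FPKM with *Xbp1* siRNA. All libraries with *Xbp1* siRNA were higher, with a log2 fold change of 0.74 (standard error 0.096, adjusted p = 0.000772 from limma). *Scap*, the escort of other substrates of both proteases, rose by 0.29 (adjusted p = 0.00166) and *Srebf2*, one of these substrates, fell by 0.35 (adjusted p = 0.00403), while *Insig2* fell by 0.34 (adjusted p = 0.0107). The subunits of NF-Y, which binds beside ATF6 at ER stress elements, split, with *Nfya* at −0.55 (adjusted p = 0.00036), *Nfyb* at −0.41 (adjusted p = 0.0139) and *Nfyc* at 0.42 (adjusted p = 0.00112 from limma). *Scap*, *Srebf2*, *Insig2* and *Nfyb* are named after their values were seen.

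Of 25 tested targets of XBP1s, 11 were lower and 6 higher, and 0 passed the fold limit in either direction, with a median log2 fold change of −0.123. Besides *Sel1l*, the largest decrease past the test was that of *Serp1*, a factor of the translocon, which went from 34.8 ± 3.83 to 24.9 ± 1.37 FPKM (SD, n = 3 each), a log2 fold change of −0.48 (standard error 0.083, adjusted p = 0.00312 from limma). Of genes for protein entry into the ER, *Ssr3* was at −0.33, *Sec61a1* at −0.27 and *Sec61b* at −0.21, all past the adjusted p, whereas *Sec63* (−0.04, adjusted p = 0.594) and *Ostc* (−0.18, adjusted p = 0.0608) did not pass. The genes of the coat of vesicles leaving the ER split, with *Sec31a* at −0.36 and *Sec24d* at 0.34, both past the adjusted p. *Syvn1* and the mannosidase-like gene *Edem1* (0.46, adjusted p = 0.000503) were higher, and *Dnajb9*, a cochaperone that dampens IRE1α, rose by 0.23 with an adjusted p of 0.0486. *Ssr3*, *Sec61a1*, *Sec61b*, *Sec63*, *Ostc*, *Sec31a*, *Sec24d* and *Dnajb9* are named after their values were seen. No tested XBP1s target came near the change of *Xbp1* in size.

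Of 14 tested ATF6 targets, 8 of which are also on the list of XBP1s targets, 6 were lower and 5 higher, with a median log2 fold change of 0.0849. *Creld2*, which encodes an ER-resident protein, rose in every library from 60.79, 62.71 and 60.15 FPKM to 88.43, 88.05 and 89.01 FPKM, a log2 fold change of 0.53 (standard error 0.033, adjusted p = 2.38e-05 from limma). *Hsp90b1*, the gene of the chaperone GRP94, had a log2 fold change of 0.26 and *Calr*, that of calreticulin, one of 0.24, whereas *Manf* was at −0.37 and *Herpud1* at −0.25, all past the adjusted p and all named after their values were seen. The lower level of *Atf6* thus came with lower and with higher levels among its targets.

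**Figure D4:**
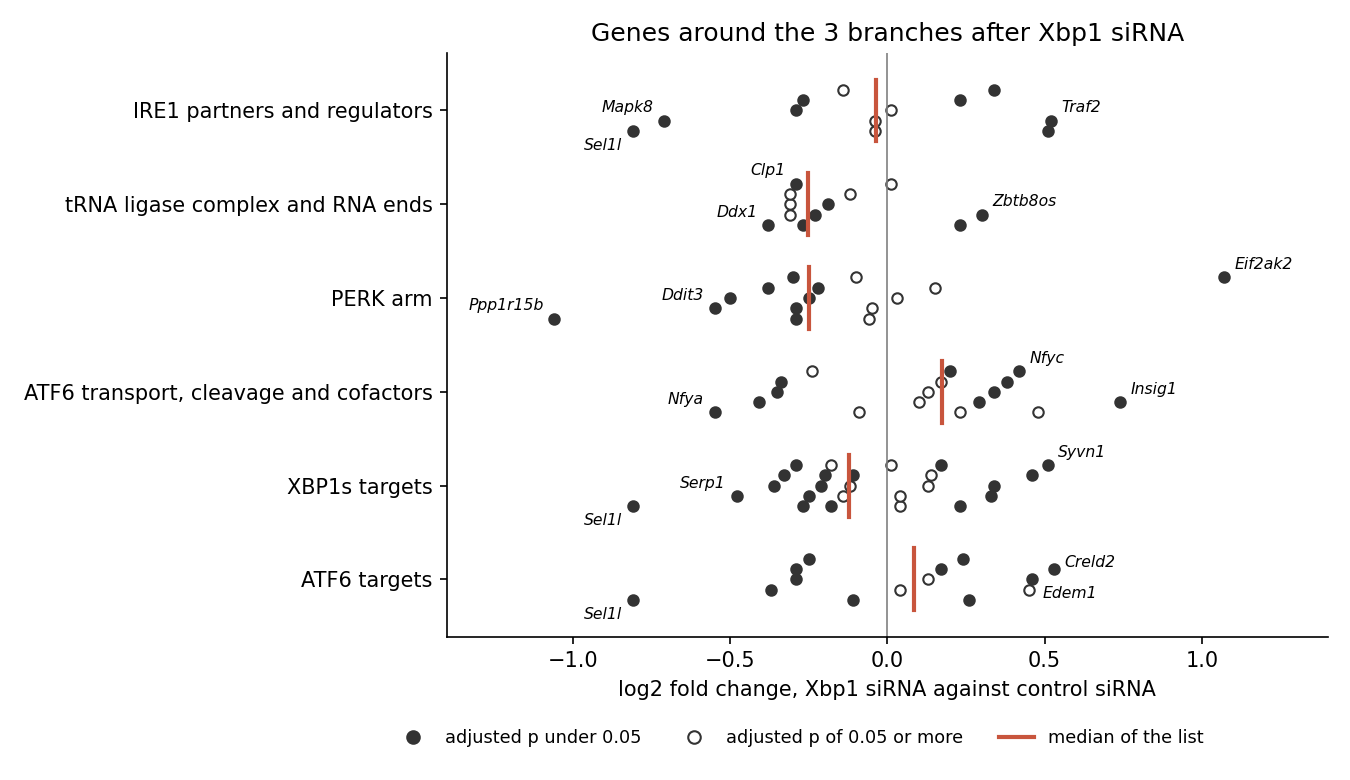
log2 fold change of the tested genes of 6 lists, *Xbp1* siRNA against control siRNA, with filled points for an adjusted p under 0.05 from limma and a red line at each list's median; a gene on several lists is drawn in each. The PERK arm has 9 filled points on the lower side and 1 on the higher side, and only *Ppp1r15b* at −1.06 and *Eif2ak2* at 1.07 lie past 1 in size.

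The genes whose pattern over the 6 libraries was most like that of *Xbp1* were sought among 9409 genes with a mean of at least 1 FPKM, by the root mean square difference of their log2 values, each taken relative to the gene's own control mean. The nearest was *Areg*, the gene of the growth factor amphiregulin, with a difference of 0.49, at 1048, 1050 and 1036 FPKM with control siRNA and 121.4, 120.7 and 115.2 FPKM with *Xbp1* siRNA. It was followed by *Ms4a15* (0.54), *Ereg*, the gene of the related epiregulin (0.75), *Sumf1*, which encodes the ER enzyme that activates sulfatases (0.76), and *Cpox*, a gene of haem synthesis (1.00). The share of the control level that was left, 7.05% for *Xbp1*, was 11.4% for *Areg*, 8.72% for *Ms4a15*, 13.5% for *Ereg*, 14.3% for *Sumf1* and 18.1% for *Cpox*. None of the other sensors or enzymes is among them.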

How the data were processed

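Stranded mRNA libraries of 6 CHO-T samples were analysed, 3 per group. The authors deposited normalized expression in FPKM for each library. The submitters' processing notes name HISAT2 2.1.0 and Cuffdiff 2.2.1, while the genome build and annotation are not given in the sources used here, so no coordinates are given. The paper's methods used DESeq2 on raw counts. FPKM values are not counts, so log2(FPKM + 0.1) was tested with limma 3.58.1 (lmFit, eBayes with trend, R 4.3.3) over 14361 rows with a mean FPKM of at least 0.1, with Benjamini-Hochberg adjustment over all of them. A fold change on this scale understates that of weakly expressed genes. The limits for a call were those of the methods, 0.05 for the adjusted p and 1 for the size of the log2 fold change. The code was tested on simulated data. Python 3.11.15 with scipy 1.17.1, pandas 2.3.3 and numpy 2.4.6 served for the rest.

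Read depth is not stated in the files. Relative depths came from the most frequent ratio of low FPKM values between control replicate 1 and each other library. Values scaled by these depths were then read as whole multiples of a step, within 0.03 reads. This gave the reads of genes with up to 500 reads in the lowest library. Symbols on more than 1 row (159) were kept apart. The 9 genes were matched by symbol to a RefSeq table of the Chinese hamster (CriGri-PICRH-1.0), 9 of 9, for names only. The listed symbols *C2orf49*, *Edem2*, *Sec61g* and *Spring1* were not matched to a row, and *Cnp* and *Creb3l4* were under the filter.

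The genes, lists and markers were chosen with earlier results of these data known. Named were all 9 genes, and from each list the genes called and, to reach 3, those past the adjusted p with the largest change, as well as the 5 genes most like *Xbp1*, leaving out symbols that are LOC numbers. The alternatives tried were a pseudocount of 0.01 or 1, no filter on low values or one at 1 FPKM, quantile normalization, median-ratio scaling, eBayes without trend, rows of 1 symbol summed, a replicate block and each library left out. An equal FPKM sum in every library and *Atf6b* in the sum of the sensors were added after seeing the data.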

Additional observations from a re-analysis of the deposited data

How the results depend on the processing

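Over 16 alternatives the log2 fold change of *Xbp1* lay between −3.89 and −3.28, that of *Rtcb* between −0.36 and −0.22 and that of *Eif2ak3* between 0.46 and 0.65, past the test in each. *Mbtps2* (−0.04) ranged from −0.10 to 0.01 with 1 library left out, with the positive value without control replicate 3, and was 0.09 with an equal FPKM sum. With an equal FPKM sum 1 of the 9 genes was called lower in place of 2, and the lists held 19 genes lower at the adjusted p in place of 31, and 0 called lower in place of 1. All genes tested then gave 254 called lower and 566 higher, against 359 and 386 as deposited. A pseudocount of 1 gave 205 lower and 114 higher, and filtering at 1 FPKM gave 242 higher. List genes called higher were 0 in place of 1 with a pseudocount of 1, quantile normalization, eBayes without trend or the replicate block. With 1 library left out, list genes called lower and called higher each ranged from 0 to 1, the former being 0 without *Xbp1* siRNA replicate 2 and the latter 0 without control replicate 3 or *Xbp1* siRNA replicate 2 or 3. The cause of these shifts was not tested. The difference in the share of *Ern1* was 1.73 percentage points with *Atf6b* in the sum, in place of 10.9.

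Libraries with the same replicate number did not deviate together (r = −0.029, −0.027 and −0.012 across genes), and none correlated best with its own number, so the numbers were not taken as pairs. With the replicate block, genes called numbered 353 lower and 363 higher, the log2 fold change of *Xbp1* stayed at −3.78, and *Ern1* and *Eif2ak2* had adjusted p of 0.0647 and 0.052 from limma. The value of *Eif2ak2* rests on few reads, 9 in its lowest library.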
